A study of Mus musculus with 24 samples.

Results

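Described here are 7 genes that mark the hepatocytes around the central vein without being enzymes of acetaminophen (APAP) activation or feedback targets of Wnt signaling: *Glul*, *Oat*, *Rhbg*, *Slc1a2*, *Gulo*, *Rgn* and *Cyp2c37*. They were picked by symbol out of the 24411 genes counted in 24 RNA-seq libraries of whole mouse liver, and each passed the filter on low counts in every comparison. Their levels were read from raw counts as CPM, a count relative to the library's reads on genes after TMM scaling over the 24 libraries. Where in the lobule a transcript lay was not measured, so the zone of each gene is background and not a result.

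The LKO mice carried *E2f7/E2f8* loxP/loxP alleles and R26R mTmG/mTmG with Alb-Cre Tg/0, which deletes both genes in the liver lifelong, on a mixed and mainly FVB background. Their control littermates carried the same floxed alleles and reporter but were Alb-Cre 0/0. In the other cohort, floxed mice 2 months old were given AAV8-TBG-Cre, in which the TBG promoter drives Cre in hepatocytes (HKO), or AAV8-TBG-Null (NULL). All were males of 2.5 months, fasted overnight for about 16 h, and mice of the 0 h groups had no APAP. At 0 h each library was 1 mouse, with 4 control, 4 LKO, 3 NULL and 3 HKO livers. At 12, 24, 48, 72 and 96 h after 300 mg/kg APAP, given to control and LKO mice in the libraries used here, each library was a pool of RNA from 3 mice, with 1 pool per genotype and time. No pool has a replicate, so intervals on the value of 1 pool cover counting error and not differences between mice.

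Hepatocytes are arranged along the axis from the portal vein to the central vein, and those next to the central vein run a distinct program that is maintained by Wnt signals from the central vein. Ammonia that escapes the urea cycle of periportal hepatocytes is taken up by this last rim of cells and fixed into glutamine. APAP overdose injures the same zone, because the P450 enzymes that turn the drug into its toxic metabolite are made there.

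Within the group, *Glul* encodes glutamine synthetase, which joins ammonia and glutamate. *Slc1a2* encodes the glutamate transporter GLT-1, *Rhbg* an ammonium transporter of the Rh family and *Oat* the mitochondrial enzyme ornithine aminotransferase, which forms glutamate semialdehyde from ornithine. *Gulo* encodes the last enzyme of ascorbate synthesis, and *Rgn* encodes regucalcin, the gluconolactonase that works one step earlier in the same pathway. *Cyp2c37* belongs to the Cyp2c family of P450 enzymes, which oxidize fatty acids and drugs.

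On GRCm38 with GENCODE vM21, *Glul* lies at chr1:153899944-153909723 on the plus strand, *Slc1a2* at chr2:102658659-102790784 on the plus strand, *Rhbg* at chr3:88242874-88254709 on the minus strand and *Oat* at chr7:132557478-132576398 on the minus strand. *Gulo* lies at chr14:65986786-66009207 on the minus strand, *Rgn* at chrX:20549787-20562089 on the plus strand and *Cyp2c37* at chr19:39992424-40012243 on the plus strand. Counts were taken over all exons of a gene. In *Rhbg*, 59.4% of 100-base windows of the transcript recur in the overlapping model *Gm38392*, which was not analysed here, so the counts of *Rhbg* depend on how the authors' annotation divided such reads. The whole span of *Oat* (18921 bases) lies within the annotated span of *Fgfr2* on the same strand, but 0% of the windows of *Oat* recur in a transcript of another gene. Counting was not by strand, so reads of *Slc1a2* and the antisense model *Gm13872*, which overlap over 8854 bases, cannot be told apart, nor can those of *Glul* and the overlapping *Teddm2* on the opposite strand. Of the windows of *Cyp2c37*, 4.70% recur in *Cyp2c50* or *Cyp2c54*, and 2.12% of those of *Glul* recur in the pseudogene *Glns-ps1*.

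RefSeq promoters on GRCm38.p6 were held for 4 of the 7 genes, *Glul*, *Oat*, *Slc1a2* and *Cyp2c37*. The 250 bases before the start were searched on both strands for CTTTGA, the core of TCF/LEF sites through which Wnt signals act, and for TTTNNCGC, an E2F site. *Slc1a2* held CTTTGA at 2 places, 206 and 77 bases before the start, and the other 3 promoters held none. In all, 13.8% of 32851 RefSeq promoters of this length hold the motif. The E2F motif, found in 4.28% of promoters, was in none of the 4, and neither were TATAAA (12.4% of promoters) and CACGTG (6.02%). The promoters of *Slc1a2* and *Glul* are shown because these 2 genes stayed below every 0 h mouse of their genotype in all 10 pools. The *Slc1a2* promoter covers chr2:102706188-102706437 on the plus strand, before a start that lies inside the GENCODE gene, and the *Glul* promoter covers chr1:153899679-153899928 on the plus strand. Capitals mark CTTTGA or its reverse complement.

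*Slc1a2*: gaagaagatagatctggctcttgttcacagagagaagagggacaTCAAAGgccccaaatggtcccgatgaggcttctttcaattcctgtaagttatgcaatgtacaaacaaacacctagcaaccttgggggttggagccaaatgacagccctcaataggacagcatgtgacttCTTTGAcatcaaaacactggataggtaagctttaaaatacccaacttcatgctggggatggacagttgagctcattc

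*Glul*: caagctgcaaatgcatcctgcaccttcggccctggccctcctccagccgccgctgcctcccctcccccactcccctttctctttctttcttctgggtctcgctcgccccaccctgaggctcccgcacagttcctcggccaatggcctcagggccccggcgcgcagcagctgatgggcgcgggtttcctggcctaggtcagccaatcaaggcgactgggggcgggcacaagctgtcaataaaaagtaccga

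Reads on genes numbered 12665686 to 19499897 per library, with a median of 16500400. *E2f8*, a deleted gene, had 17.6 to 34.2 CPM over its whole length in LKO and 11.6 to 18.7 CPM in control livers, and 30.7 to 83.9 CPM in livers labelled HKO against 15.2 to 26.4 CPM in NULL, while *E2f7* had 2 to 22 counts. These whole-gene counts include exons outside the deleted part, so they do not check the genotypes, and every direction given follows the labels. Albumin (*Alb*) and the other 9 general hepatocyte genes together reached 75294 to 120659 CPM in control and 55061 to 95623 CPM in LKO livers at 0 h.

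To compare levels between genes, CPM was divided by the exon length in kilobases. In the 4 control mice at 0 h, *Rgn* was highest, at 588 ± 73.1 CPM per kilobase (SD, n = 4), followed by *Oat* at 281 ± 34.3, *Gulo* at 209 ± 20.9, *Glul* at 150.3 ± 23.5 and *Cyp2c37* at 126 ± 46.5. *Slc1a2* and *Rhbg* were far lower, at 9.36 ± 1.11 and 7.45 ± 1.91 CPM per kilobase. The ranges of *Glul* and *Cyp2c37* overlapped, as did those of *Slc1a2* and *Rhbg*, while each other pair of neighbors in this order was separate in the 4 mice. For *Slc1a2* the length includes all 13133 annotated exon bases, which lowers its value if most transcripts are shorter.

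The first question was how far the 7 genes were lost after APAP and when they returned. Each time point was compared with the 8 mice at 0 h in 1 fit over 18 libraries with genotype as a covariate, so that each comparison rests on 2 pools, 1 per genotype. Calls required 1.5-fold or more and an adjusted p under 0.05 from edgeR's quasi-likelihood test, with Benjamini-Hochberg adjustment over 13855 genes. In whole liver, fewer cells of a type and less RNA per cell cannot be told apart.

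At 12 h, 5 of the 7 genes fell, where 14.3% of all genes tested were called lower, and at 24 h all 7 fell, against 11.7%. At 48 h, 6 of the 7 fell, against 6.52%. The number was 3 at 72 h (*Glul*, *Oat* and *Slc1a2*), against 5.79%, and 1 at 96 h (*Slc1a2*), against 0.13%. None was called higher at any time, where 16.7%, 13.9%, 9.9%, 11% and 0.332% of genes were at 12, 24, 48, 72 and 96 h. The median log2 fold change of the 7 went from -1.92 at 12 h and -1.97 at 24 h to -2.16 at 48 h, and was -1.09 at 72 h and -0.26 at 96 h, with medians over all genes of -0.03 to 0.00.

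Set against single mice, the control pool lay below all 4 control mice of 0 h for 7, 7, 7, 6 and 3 of the 7 genes at 12, 24, 48, 72 and 96 h, where 34.2%, 31.5%, 31.9%, 33.2% and 27.3% of all genes did. The LKO pool lay below all 4 LKO mice for 6, 6, 6, 3 and 3 genes, against 33.5%, 29.9%, 27.2%, 26% and 21.9%. *Glul*, *Rhbg*, *Slc1a2* and *Gulo* were lower in all 6 pools of 12 to 48 h than in all 8 mice of 0 h, which 3.27% of genes were.

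**Figure D1:**
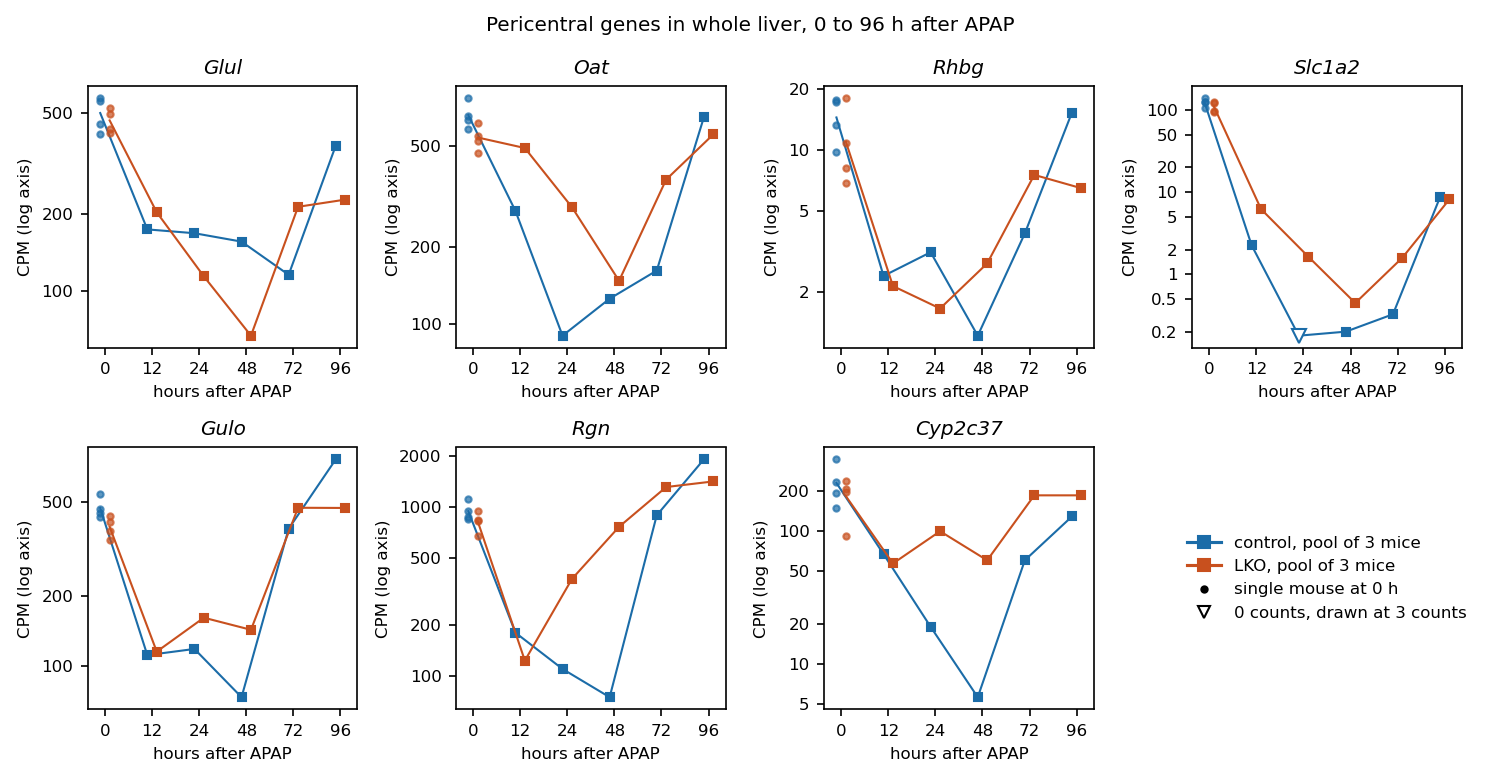
Levels of the 7 genes in CPM on a log axis against hours after APAP, with single mice at 0 h as dots and 1 pool of 3 mice per genotype and time as squares joined to the 0 h mean, times evenly spaced, and an open triangle at the level of 3 counts where a pool had 0. *Slc1a2* falls furthest, from 93.9 to 139 CPM at 0 h to 0.202 and 0.449 CPM at 48 h, and *Rgn* ends above its 0 h mice in both genotypes.

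*Slc1a2*, the glutamate transporter, showed the deepest loss and had not returned by 96 h. At 0 h the 4 control mice had 104, 139, 124 and 125 CPM and the 4 LKO mice had 124, 93.9, 122 and 97.0 CPM. The control pools at 12, 24, 48, 72 and 96 h had 34, 0, 4, 5 and 124 counts, or 2.25, 0, 0.202, 0.328 and 8.68 CPM. In the LKO pools there were 105, 32, 8, 34 and 152 counts, or 6.20, 1.65, 0.449, 1.60 and 8.19 CPM. Every pool of either genotype therefore lay below every mouse at 0 h. At 24 h the control pool, with a count of 0, was at least 682-fold lower than the control mean at 0 h, taking 3 counts in that library as the limit of detection. By 96 h the control pool had reached 7.07% and the LKO pool 7.50% of the 0 h mean of their genotype.

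At 12 h the fitted log2 fold change of *Slc1a2* was -4.84 (standard error 0.59) with an adjusted p of 2.5e-05 by edgeR. It was -6.91 (0.68, 2e-06) at 72 h and -3.79 (0.55, 0.00479) at 96 h. At 24 and 48 h the fitted values of -7.17 and -8.50 rest on 0 to 32 counts per pool. The call at 96 h was lost without the control pool (adjusted p = 0.0621 by edgeR) and without the LKO pool (adjusted p = 0.108 by edgeR), fits in which the single pool left is assumed to vary like the other groups.

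*Glul*, the defining enzyme of the rim around the central vein, fell at 12, 24, 48 and 72 h and also stayed below the 0 h mice of the same genotype in all 10 pools. The control mice at 0 h had 414, 558, 453 and 573 CPM and the LKO mice 524, 497, 418 and 431 CPM. After APAP the control pools had 174, 169, 156, 116 and 372 CPM from 12 to 96 h, and the LKO pools 204, 114, 66.8, 214 and 228 CPM. The lowest point thus came at 72 h in control, at 23.2% of the 0 h mean, and at 48 h in LKO, at 14.3%.

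In the fit for *Glul*, the log2 fold changes were -1.33, -1.79, -2.15 and -1.52 from 12 to 72 h, with adjusted p-values by edgeR of 0.00316, 0.000696, 0.000265 and 0.00245. The value at 96 h was -0.71 (standard error 0.29, adjusted p = 0.251 by edgeR) and did not pass. Without the control pool the calls at 12 h (adjusted p = 0.0782 by edgeR) and 72 h (0.157) were lost.

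*Rhbg*, the ammonium transporter, had few reads, with 119 to 261 counts per mouse at 0 h in this cohort. The control mice had 9.72, 17.6, 17.2 and 13.2 CPM at 0 h, and the LKO mice 18.0, 8.11, 6.87 and 10.8 CPM. Pools of control livers had 2.39, 3.12, 1.21, 3.87 and 15.3 CPM from 12 to 96 h, and those of LKO livers 2.13, 1.65, 2.75, 7.52 and 6.46 CPM. At 96 h the control pool was within its 0 h range and the LKO pool, at 58.9% of its mean, lay below the lowest LKO mouse.

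*Rhbg* fell at 12 h (log2 fold change -2.47, standard error 0.50, adjusted p = 0.00138 by edgeR), 24 h (-2.43) and 48 h (-2.64) and did not pass at 72 h (-1.09, adjusted p = 0.0941 by edgeR) or 96 h (-0.26, 0.814). DESeq2 called it at 72 h (adjusted p = 0.0464). The call at 24 h was lost without the LKO pool (adjusted p = 0.0654 by edgeR) and that at 48 h without the control pool (0.0863).

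*Oat*, the ornithine aminotransferase, fell from 24 to 72 h and was back within the 0 h range by 96 h. At 0 h the control mice had 633, 775, 658 and 585 CPM and the LKO mice 524, 550.3, 618 and 471 CPM. In control pools the level was 278, 89.6, 125, 162 and 649.7 CPM from 12 to 96 h. In LKO pools it was 492, 288, 147, 370 and 556 CPM over the same times. At 12 h the LKO pool was still within the range of its 0 h mice, while the control pool was at 42.0% of the 0 h mean, and both pools were within range at 96 h.

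*Oat* did not pass at 12 h (log2 fold change -0.69, standard error 0.34, adjusted p = 0.13 by edgeR) and fell at 24 h (-1.76, adjusted p = 0.00263), 48 h (-2.16, 0.00108) and 72 h (-1.24, 0.0235). At 96 h the log2 fold change was 0.00 with a standard error of 0.33. Without the control pool the calls at 24 h (adjusted p = 0.0876 by edgeR) and 72 h (0.455) were lost.

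The ascorbate genes fell at 12 and 24 h and stood at 81.6% of the 0 h mean or more in both genotypes by 72 h. *Gulo* had 432, 466, 540.0 and 452 CPM in the control mice at 0 h and 413, 437, 377 and 345 CPM in the LKO mice. Control pools had 112, 119, 74.0, 386 and 762 CPM from 12 to 96 h, and LKO pools 116, 161, 143, 474 and 473 CPM. *Gulo* fell at 12 h (log2 fold change -1.92, standard error 0.27, adjusted p = 8.62e-05 by edgeR), 24 h (-1.63) and 48 h (-1.99), and these 3 calls held in all 18 alternative settings. At 72 h the fitted change was -0.01, but the 2 pools lay on opposite sides, the control pool below all its 0 h mice at 81.6% of the mean and the LKO pool above all of its own at 121%. At 96 h both pools were above their 0 h mice, at 161% and 120.3% of the mean, with a log2 fold change of 0.51 (adjusted p = 0.292 by edgeR).

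*Rgn* had 1110.1, 871, 852 and 946 CPM in the control mice at 0 h and 669.7, 830.4, 841 and 949 CPM in the LKO mice. The control pools had 181, 110.3, 75.1, 893 and 1912 CPM from 12 to 96 h. The LKO pools had 124, 376, 764, 1312 and 1416 CPM. Between 48 and 72 h the control level thus went from 7.95% to 94.6% of the 0 h mean, whereas the LKO pool was already at 92.9% and within its 0 h range at 48 h. At 96 h the pools stood at 202% and 172% of the 0 h means, above every 0 h mouse.

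For *Rgn* the fall at 12 h (log2 fold change -2.51, standard error 0.60, adjusted p = 0.00458 by edgeR) and that at 24 h (-1.97, 0.59, 0.0191) passed. At 48 h, where the genotypes differed most, it did not pass (-1.23, 0.57, 0.14), and without the LKO pool it was called (-3.54, adjusted p = 0.000699). The 12 h call was lost without the LKO pool (adjusted p = 0.0691 by edgeR) and the 24 h call without the control pool (0.265). The value at 96 h did not pass (log2 fold change 0.93, adjusted p = 0.359 by edgeR).

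*Cyp2c37* had 233, 193, 148 and 346 CPM in the control mice at 0 h and 91.0, 238, 197 and 207 CPM in the LKO mice, with coefficients of variation of 36.9% and 34.9%. The control pools had 67.0, 19.0, 5.60, 60.2 and 129 CPM from 12 to 96 h. In the LKO pools it had 57.0, 99.6, 60.2, 186 and 186 CPM. The control minimum at 48 h was 2.43% of the 0 h mean, and the LKO minimum at 12 h was 31.1%. At 72 h the LKO pool was at 101% and the control pool at 26.2%.

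For *Cyp2c37* the log2 fold change was -1.74 at 12 h (standard error 0.67, adjusted p = 0.0542 by edgeR), just outside the threshold, and 5 of 18 alternative settings called it. It fell at 24 h (-2.06, 0.70, 0.0372) and 48 h (-2.96, 0.75, 0.0127). The 24 h call was lost without the control pool (adjusted p = 0.362 by edgeR), without the LKO pool (0.0527), without control mouse 1 (0.0504) and with no genotype covariate (0.0705), and the 48 h call without the control pool (0.18). At 72 and 96 h it did not pass (-0.94, adjusted p = 0.333, and -0.49, adjusted p = 0.752, by edgeR).

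To place these changes, other gene lists were read from the same fit. Of 16 other pericentral genes, which include the APAP-activating enzymes *Cyp2e1* and *Cyp1a2* and the Wnt targets *Axin2* and *Lgr5*, 5, 8, 10, 1 and 1 fell at the 5 times from 12 to 96 h, and 4, 1, 0, 1 and 1 rose. At 48 h *Cyp2e1* had a log2 fold change of -2.62 (adjusted p = 0.00209 by edgeR), *Cyp1a2* -1.94 (0.029) and *Lgr5* -2.17 (0.0123), while *Axin2* at -1.13 (0.0858) did not pass. Of 11 periportal genes tested, 3, 8, 3, 3 and 0 fell from 12 to 96 h and 1 rose, at 12 h. Among those that fell were *Cyp2f2*, a periportal P450, at 24 h (-2.03, adjusted p = 3.17e-05) and *Pck1*, the gluconeogenic enzyme, at 24 h (-1.83, 0.00156). *Hal*, the histidine-degrading enzyme, fell at 24 h (-1.04, 0.0207), and *Ass1*, of the urea cycle, did not pass the filter on low counts. Its mean at 0 h was 0 CPM in control and 0.0932 CPM in LKO mice. Whether reads of *Ass1* were lost in counting was not tested, so these values are not taken as its level in liver. Losses were therefore not limited to pericentral genes.

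**Figure D2:**
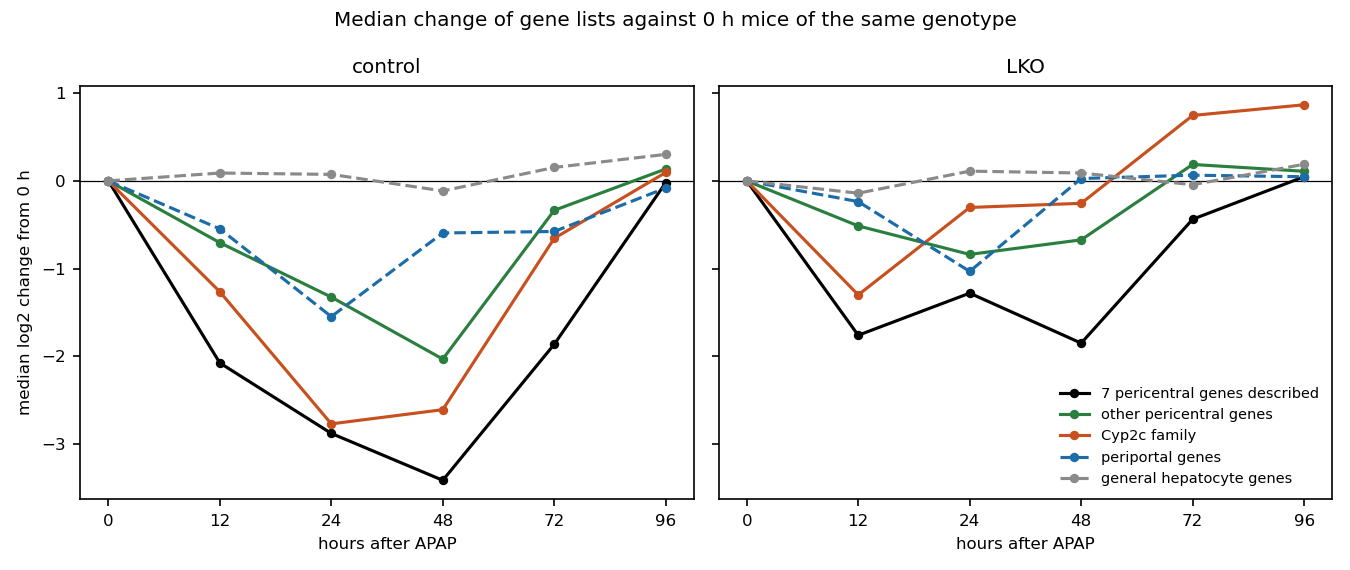
Median log2 change of CPM from the 0 h mice of the same genotype, by hours after APAP (evenly spaced), for the 7 genes and 4 comparison lists, with control pools on the left and LKO pools on the right. The 7 genes reach a median of -3.41 in the control pool and -1.85 in the LKO pool at 48 h, while the median of 10 general hepatocyte genes stays between -0.14 and 0.30.

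The 10 general hepatocyte genes, such as *Alb*, *Apoa1*, *Apob* and *Ttr*, summed to 98536 to 144363 CPM in the control pools and 68481 to 106456 CPM in the LKO pools, ranges that overlap those of 0 h. Of these 10, 1 fell at 12, 24 and 48 h each, and 1 rose at 24 and at 72 h. Markers of other cells moved over the same times. Of the 5 stellate cell markers, among them *Dcn*, *Col1a1*, *Col3a1* and *Lrat*, 3 fell at 12 h, 2 fell and 2 rose at 24 h, 3 rose at 48 h, all 5 rose at 72 h, with a median log2 fold change of 3.78, and 1 rose at 96 h. Their sum went from 112 to 192 CPM in control mice at 0 h to 176 to 887 CPM in control pools, and from 98.5 to 160.2 CPM to 110.1 to 612 CPM in LKO. The 6 macrophage markers, led by *Adgre1*, *Clec4f*, *Cd68* and *Lyz2*, summed to 125 to 209.6 CPM at 0 h and 122 to 561 CPM after APAP in control, and to 134 to 321 CPM and 118 to 564 CPM in LKO. Of these 6, 1 rose and 1 fell at 12 h, 1 rose and 3 fell at 24 h, and 2, 3 and 1 rose at 48, 72 and 96 h. None of the stellate or macrophage markers was at 0 counts in any library. The part of these cells in the changes of the 7 genes was not tested.

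Of 4 neutrophil markers with a row, *S100a8*, *S100a9*, *Mpo* and *Cxcr2*, 3 were tested, of which 1 rose at 12 h and 2 rose at 24 h and at 48 h, with a sum going from 1.05 to 6.46 CPM in control mice to 5.81 to 21.0 CPM in control pools and from 0.693 to 5.11 CPM to 1.56 to 21.2 CPM in LKO, and at most 1 of the 4 was at 0 counts in any of these libraries. The 5 endothelial markers, such as *Stab2* and *Pecam1*, summed to 188 to 240.0 CPM and 210 to 249 CPM in control and LKO mice at 0 h and to 144 to 209 CPM and 138 to 205 CPM in the pools, with 1 called higher and 1 lower at 12 h and 2 called lower at 24, 48 and 72 h each. The 5 cholangiocyte markers, such as *Krt19* and *Epcam*, summed to 37.5 to 77.3 CPM and 39.2 to 66.8 CPM at 0 h and to 21.6 to 215 CPM and 21.4 to 86.5 CPM in the pools, the control pools at 12 and 48 h standing at 172 and 215 CPM. The largest log2 CPM changes in these 2 pools were those of *Sox9* at 12 h (4.43) and *Spp1* at 48 h (2.17, from a 0 h mean of 44.6 CPM). *Krt19* and *Epcam* changed by 0.35 and 1.06 at 12 h and by -0.88 and -1.01 at 48 h. Of these 5, 1 rose at 12 h and at 24 h, 2 rose and 1 fell at 48 h, and 1 fell at 72 h, with *Sox9* at a log2 fold change of 3.57 at 12 h (adjusted p = 5.02e-07 by edgeR).

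Around *Glul* and *Oat*, 16 further genes of glutamine, glutamate and proline metabolism were read, and they moved both ways. At 24 h, 5 fell and 6 rose, and at 48 h 3 fell and 5 rose. *Slc38a3*, the glutamine transporter SNAT3, fell at 24 h (log2 fold change -1.48, adjusted p = 0.000936 by edgeR) and 48 h (-1.21, 0.00539). *Gls2*, the liver glutaminase of periportal cells, fell at 24 h (-1.77, 7.77e-05), and so did the proline-degrading enzymes *Prodh* (-1.66, 0.000757) and *Aldh4a1* (-1.52, 0.000696). In the other direction, the glutamine importer *Slc1a5* rose at 24 h (1.83, 0.0013), together with the CTP synthetase *Ctps* (2.86, 2.77e-06), the asparagine synthetase *Asns* (3.18, 0.00324) and *Aldh18a1*, which starts proline synthesis (1.97, 0.00616). Control means at 0 h were 0.994 (*Aldh18a1*) to 5.38 CPM (*Ctps*) for these rising genes, against 246 (*Prodh*) to 2185 CPM (*Slc38a3*) for the falling genes named. The 16 genes summed to 6197 to 6757 CPM in control mice at 0 h and 3127 to 5501 CPM in control pools. In LKO the sums were 5290 to 5797 CPM and 3695 to 5761 CPM. *Glud1*, glutamate dehydrogenase, had a log2 fold change of -0.05 at 24 h (adjusted p = 0.869 by edgeR).

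Of 6 other genes of ascorbate synthesis and handling, none fell at 12 h, when *Gulo* and *Rgn* did, and 2 rose. *Ugdh*, which makes UDP-glucuronate, rose at 12 h (log2 fold change 1.12, adjusted p = 0.00019 by edgeR), as did the ascorbate transporter *Slc23a2* (1.37, 0.00431). *Slc23a1*, the second such transporter, fell at 24 h (-0.85, 0.0223). *Ugp2*, which makes UDP-glucose, and *Akr1a1*, which reduces glucuronate, did not pass at any of the 5 times, with log2 fold changes at 12 h of -0.52 for *Ugp2* and -0.39 for *Akr1a1* and of -0.49 to 0.18 at 24 to 96 h. At 12 h the change of *Ugp2* from 0 h was -0.01 in the control pool and -1.23 in the LKO pool on the log2 CPM scale.

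The next question was whether the 7 genes differed between LKO and control livers after APAP. Over the 5 pools of each genotype, with time as a block, none of the 7 was called, where 0.579% of 12782 genes were (edgeR). For 5 genes the estimate was higher in LKO and for 2 lower, with a median log2 fold change of 0.73 against -0.01 over all genes. *Cyp2c37* had the largest, 1.51 (standard error 0.45, adjusted p = 0.136 by edgeR), followed by *Slc1a2* with 1.49 (0.57, 0.217), *Rgn* with 0.87 (0.51, 0.389) and *Oat* with 0.73 (0.26, 0.188). *Gulo* (0.20), *Rhbg* (-0.07) and *Glul* (-0.29) were closer to 0. Over the alternatives *Gulo* ran from -0.09, with no time block, to 0.43 and *Rhbg* from -0.35 to 0.28, turning sign with library-size scaling and without 24 or 96 h, while *Slc1a2* ran from 0.66, with no time block, to 2.20. *Rgn* ran from 0.32 to 1.28, *Cyp2c37* from 1.06 to 1.96 and *Oat* from 0.50 to 0.98. At an unadjusted p under 0.05, *Cyp2c37*, *Slc1a2* and *Oat* passed, as did 2284 of the 12782 genes. DESeq2 called *Slc1a2* (adjusted p = 0.0283) and *Oat* (0.0493), among 606 genes called by that tool, and edgeR with no filter beyond 1 count called *Cyp2c37* (adjusted p = 0.031).

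**Figure D3:**
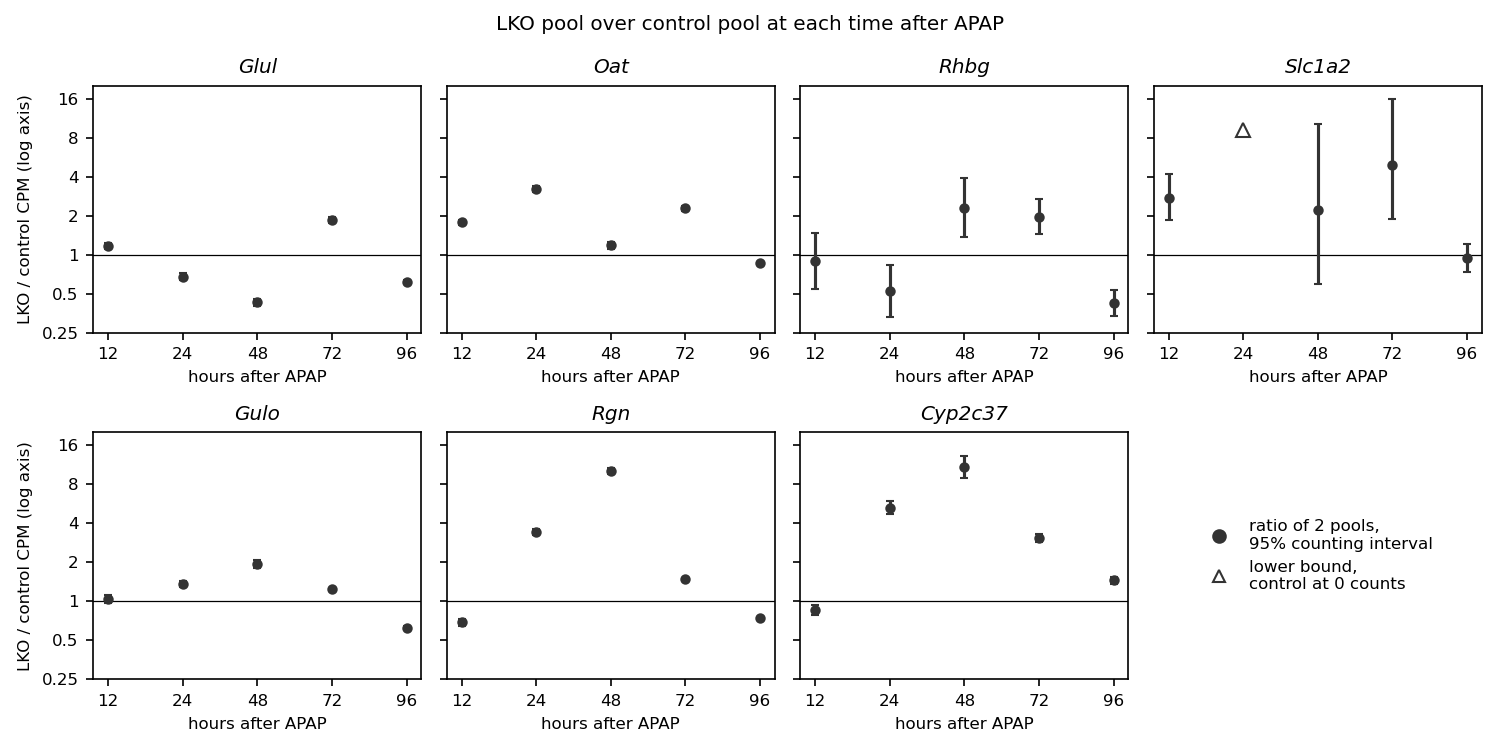
Ratio of CPM in the LKO pool to the control pool at each time (evenly spaced) on a log axis, with 95% Poisson intervals that cover counting error only, and an open triangle for the lower bound of *Slc1a2* at 24 h. *Rgn* and *Cyp2c37* reach 10.2 and 10.7 at 48 h, and the ratio at 96 h is 0.423 to 0.856 for *Glul*, *Oat*, *Rhbg*, *Gulo* and *Rgn*, 0.943 for *Slc1a2*, which passes 1 with library-size scaling or the stranded column, and 1.44 for *Cyp2c37*.

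At single time points, where 1 pool stands against 1 pool and no test was made, the ratios of LKO to control were highest at 48 h for *Rgn* and *Cyp2c37* and at 24 h for *Oat*. *Rgn* was 3.41-fold higher in LKO at 24 h (95% counting interval 3.24 to 3.59) and 10.2-fold higher at 48 h (9.64 to 10.7). *Cyp2c37* was 5.25-fold higher at 24 h (4.66 to 5.93), 10.7-fold at 48 h (8.83 to 13.2) and 3.08-fold at 72 h (2.87 to 3.32). *Oat* was 1.77-fold higher at 12 h, 3.21-fold at 24 h, 1.18-fold at 48 h and 2.28-fold at 72 h. *Slc1a2* was 2.75-fold higher at 12 h (1.85 to 4.18), at least 9.15-fold higher at 24 h, where the control pool had 0 counts, 2.23-fold higher at 48 h (0.596 to 10.1), and 4.87-fold higher at 72 h (1.89 to 15.9).

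*Glul* and *Rhbg* moved both ways. At 48 h the *Glul* level in LKO was 0.427 of that in control, and at 72 h it was 1.85-fold higher. *Rhbg* was 2.27-fold higher in LKO at 48 h (95% counting interval 1.37 to 3.87) and at 0.423 of control at 96 h (0.336 to 0.531). Counted over the 7 genes on the log2 CPM scale (prior count 2), which shrinks ratios of low counts, the LKO pool was at least 2-fold higher for 1, 4, 3, 3 and 0 genes in this order of times, where 9.03%, 3.37%, 7.1%, 6.52% and 6.48% of 13855 genes were. By the CPM ratios themselves *Slc1a2* is past 2-fold at 48 h too, as it is with a prior count of 0.5 or the stranded column. It was at least 2-fold lower for *Glul* at 48 h, against 9.76% of genes, and for *Rhbg* at 96 h, against 4.67%, and for none of the 7 at 12, 24 and 72 h, against 12.4%, 4.85% and 6.99%. *Rhbg*, with few reads, depended on the setting, with a log2 ratio at 24 h of -0.87, or -2.20 with the stranded column. Of the 7, 4, 5, 6, 7 and 1 were higher in LKO from 12 to 96 h in any degree, where *Rhbg* at 12 h (stranded column) and *Slc1a2* at 96 h (stranded column or library-size scaling) changed side, their counting intervals of 0.546 to 1.46 and 0.739 to 1.20 both spanning 1.

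In the Cyp2c family of *Cyp2c37*, 12 of 14 genes were tested over 12–96 h, and all 12 estimates were higher in LKO, with a median log2 fold change of 1.16. The calls were *Cyp2c40* (4.77, standard error 0.31, adjusted p = 0.000196 by edgeR) and *Cyp2c69* (5.02, 0.42, 0.00116), while DESeq2 called 6, and 9 of the 12 had an unadjusted p under 0.05. Both called genes had few reads, with 0 h means of 4.00 and 1.12 CPM in control and 3.56 and 0.817 CPM in LKO. *Cyp2c29* had 2563 and 2273 CPM. *Cyp2c29* (1.59, adjusted p = 0.211), *Cyp2c50* (1.03, 0.273), *Cyp2c54* (1.14, 0.231) and *Cyp2c70* (0.36, 0.703) did not pass. At 48 h all 12 were at least 2-fold higher in the LKO pool than in the control pool. Members of this family are alike in sequence, so their counts are uncertain where reads could not be placed. Of the 14 other pericentral genes tested, 11 estimates were higher in LKO with a median log2 fold change of 0.55, and of 11 periportal genes 9 were, with a median of 0.25. No gene of these 2 lists was called by edgeR, while 5 pericentral and 3 periportal genes had an unadjusted p under 0.05, against 2284 of 12782 genes in all, and DESeq2 called 1 and 2.

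Whether the genotype difference itself changed with APAP was tested by setting the LKO effect over 12–96 h against that at 0 h. None of the 7 was called (0% of 13855 genes were by edgeR), and DESeq2 called 39 genes, none of them among the 7. Of all genes, 1306 had an unadjusted p under 0.05, among them *Oat*, *Cyp2c37* and *Slc1a2*. The largest differences were in *Cyp2c37* (log2 1.84, standard error 0.61, adjusted p = 0.443 by edgeR), *Slc1a2* (1.44, 0.49, 0.443), *Rgn* (1.07, 0.59, 0.584) and *Oat* (1.03, 0.31, 0.411). In the alternatives these ran from 1.41 to 2.30, 1.11 to 2.21, 0.52 to 1.48 and 0.80 to 1.27 in the same order. Between the later (72 and 96 h) and earlier (12 to 48 h) pools, the LKO effect differed by between -1.49 (*Rgn*, standard error 0.91, adjusted p = 0.613 by edgeR) and 0.62 (*Glul*, 0.54, 0.734), and none of the 7 was called or had an unadjusted p under 0.05, where 0.149% of genes were called. Over the alternatives *Rgn* ran from -2.49 (without 12 h) to -0.55 (without 48 h) and *Glul* from -0.17 (without 72 h) to 1.40 (without 96 h), turning sign.

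Before APAP, the 7 genes were compared between LKO and control mice at 0 h, in the lifelong deletion. All 7 estimates were lower in LKO, though *Glul* went to 0.04 with library-size scaling, with log2 fold changes from -0.09 (*Glul*, standard error 0.15) to -0.39 (*Rhbg*, 0.30), and none was called by edgeR (adjusted p = 0.999 for each), as for 0% of the 12426 genes tested, of which 352 had an unadjusted p under 0.05, and DESeq2 called 3, none of them among the 7. Values of the 2 groups overlapped for all 7, where 1.96% of genes did not overlap. The 2 smallest unadjusted p-values from edgeR were 0.0641 for *Oat* (663 ± 80.9 CPM in control, 541 ± 61.0 in LKO, SD, n = 4 each) and 0.0741 for *Gulo* (472 ± 47.2 and 393 ± 40.1).

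**Figure D4:**
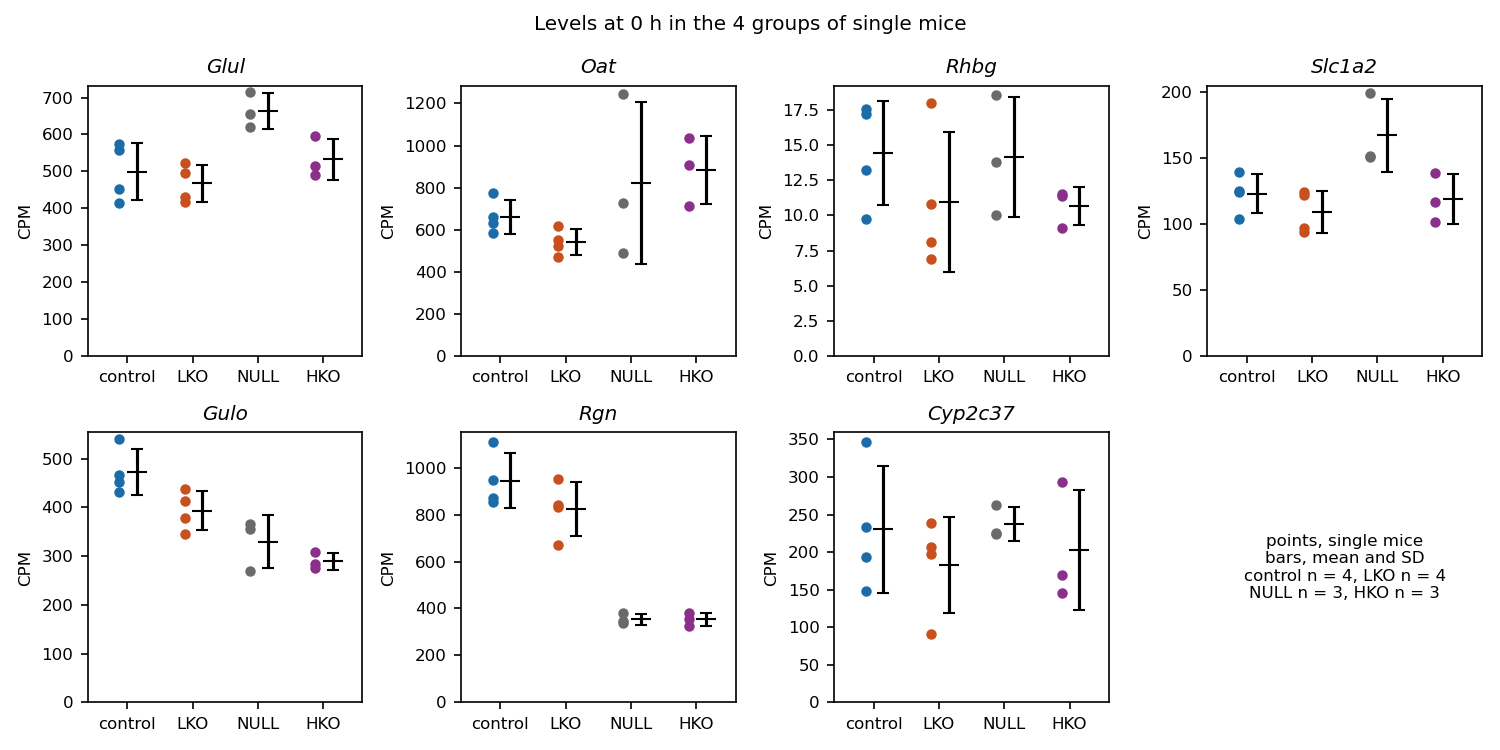
CPM at 0 h of the 7 genes in single mice (points) with mean and SD (bars) for control (n = 4), LKO (n = 4), NULL (n = 3) and HKO (n = 3). *Glul* and *Slc1a2* lie lower in each HKO mouse than in each NULL mouse, and *Rgn* is at 669.7 to 1110.1 CPM in the LKO cohort and 326 to 380.3 CPM in the other cohort.

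In the adult deletion, *Glul* and *Slc1a2* were lower in all 3 HKO mice than in all 3 NULL mice, a separation also seen in 16.9% of all genes. *Glul* had 716, 621 and 655 CPM in NULL and 596, 489.7 and 514 CPM in HKO, which gave a log2 difference of -0.30 (standard error 0.11) at an adjusted p of 0.285 by edgeR. *Slc1a2* had 199, 150.4 and 151 CPM in NULL and 139, 101 and 117 CPM in HKO, a log2 fold change of -0.48 (0.15, 0.202). The other 5 genes overlapped, with log2 fold changes of 0.12 for *Oat*, -0.39 for *Rhbg*, -0.18 for *Gulo*, 0.01 for *Rgn* and -0.21 for *Cyp2c37*. None of the 7 was called by edgeR, where 0.96% of 12397 genes were, or by DESeq2, and *Glul* and *Slc1a2* had an unadjusted p under 0.05, as did 1598 genes in all. The LKO and HKO effects at 0 h differed by -0.41 (*Oat*, standard error 0.33) to 0.31 (*Slc1a2*, 0.22) on the log2 scale and none of these differences was called by edgeR, as for 0% of 12945 genes, or had an unadjusted p under 0.05. DESeq2 called 21 genes, none of them among the 7.

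The cohorts also differed in their untreated levels. *Rgn* was at 945 ± 117 CPM in control mice (SD, n = 4) and 354 ± 22.5 CPM in NULL mice (SD, n = 3), and *Gulo* at 472 ± 47.2 and 330.0 ± 53.4 CPM, both without overlap. *Glul* went the other way, with 499.6 ± 77.9 and 664 ± 48.1 CPM, as did *Slc1a2*, with 123 ± 14.6 and 167 ± 27.8 CPM. In all, 24.6% of genes had no overlap between these groups. Mice of the NULL group were given a virus and those of the control group were not, and virus and cohort cannot be told apart. No test was made.

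Across 18 libraries, those of control and LKO mice, the genes closest to each of the 7 by Pearson's r of log2 CPM (prior count 2) were listed as a description. The points share the time course, so any gene that falls and returns will correlate. *Glul* was closest to *Npr2* (r = 0.92, n = 18), *Foxo4*, *Gpr108*, *Dgat2* and *Slc1a2* (0.89), and *Slc1a2* to *Trpc4ap* (0.97), *Npr2*, *Atat1*, *Pex6* and *Adck5*. *Oat* was closest to *Lhpp* (0.96), *Hpd*, *Gcdh*, *Trpc4ap* and *Plekha6*, and *Rhbg* to *Gjb1* (0.93), *Oaf*, *Mpst* and *Ces3a*. *Gulo* was closest to *Cml1* (0.93), *Notum*, *Mettl7a1* and *Rgn* (0.92), *Rgn* to *Cyp4f14* (0.98), *Fggy*, *Car3*, *Aadac* and *Klkb1*, and *Cyp2c37* to *Cyp2c29* (0.96), *Cyp2c50*, *Cyp2e1*, *Cyp2c54* and *Dpys*. Among the 7 themselves, r ran from 0.41 (*Glul* with *Rgn*) to 0.92 (*Gulo* with *Rgn*).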

How the data were processed

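Whole-liver RNA was sequenced, and the deposited values are raw counts per gene, which the authors made by trimming reads in Trimmomatic and aligning with STAR to mm10. They are not normalized. Which gene annotation was used is not given in the sources used here. The count column that disregards strand was read. The stranded column used as an alternative held fewer reads on genes in every library, such as 8444770 against 16295178 in the control pool at 12 h. Ratios of low counts are therefore less certain under it. Entries naming no gene, 18.7% to 39.9% of a library, stayed out of totals and tests.

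Tests were run in edgeR 4.0.16 (filterByExpr, TMM, quasi-likelihood) under R 4.3.3 with limma 3.58.1. DESeq2 1.42.0 served as an alternative. Adjustment was by Benjamini-Hochberg over all genes of a comparison, p-values are 2-sided, and calls needed an adjusted p under 0.05 and a 1.5-fold change. Log2 CPM has a prior count of 2. The 18 control and LKO libraries and the 6 NULL and HKO libraries were fitted apart, except for the difference between deletions at 0 h. The study states 4 mice per genotype at 0 h, and 3 NULL and 3 HKO libraries were analysed here. Each fit was tested on simulated data. Within the 4 groups at 0 h, no pair of libraries agreed within sampling noise. Mice of a group are separate animals, and the 2 pools of a time differ in genotype.

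The 7 genes and all gene lists were chosen with earlier results of these data known. Genes named are the 7, the first 4 of each list, list genes that passed a test, and the 5 genes most correlated with each of the 7, a few of which are not reported here. Alternatives were DESeq2, RLE or library-size scaling, other filters, a stranded count column, no fold limit, a prior count of 0.5, other blocks or covariates, and leaving out each mouse, pool or time.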

Additional observations from a re-analysis of the deposited data

Results flagged for a closer look

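*Gulo* at 72 h stood out because the control pool (386 CPM) lay below all 4 control mice of 0 h (432 to 540.0 CPM) while the LKO pool (474 CPM) lay above all 4 LKO mice (345 to 437 CPM). The change from 0 h was 0.56 higher in LKO than in control on the log2 scale. There was 1 pool per genotype, so this difference was not tested.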

How the results depend on the processing

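No call turned its direction under any alternative run. Of the tests of the 7 genes, 1269 kept their side of the threshold, 15 lost the call and 10 gained it. The number of genes called in LKO against control at 0 h was 0, with 3 by DESeq2 and 0 to 1 without single mice (1 without control mouse 4). In HKO against NULL it was 119, with 331 by DESeq2, 255 with no filter beyond 1 count and 54 to 297 without single mice (54 without NULL 1, 56 without NULL 2, 297 without HKO 1). Over 12–96 h it was 74, with 606 by DESeq2, 42 with library-size scaling, 337 with no filter, 34 with at least 10 counts, 0 with no time block, and 9 to 177 without single times (9 without 12 h, 18 without 24 h, 10 without 48 h, 12 without 72 h, 177 without 96 h). Against 0 h the range over single libraries left out was 2151 to 4419 at 12 h, 1177 to 3631 at 24 h, 507 to 2387 at 48 h, 514 to 2408 at 72 h and 7 to 83 at 96 h. The lowest counts at 12, 48 and 72 h came without the control pool and those at 24 h without the LKO pool (1584 without the control pool). At 72 h the filter of 10 counts gave 1519. At 96 h, DESeq2 gave 338, library size 41, the stranded column 28 and no genotype covariate 35 (main count 64), and leaving out control mouse 1, 2 or 4 gave 23, 19 or 38, LKO mouse 2 or 3 gave 28 or 18, and the control or LKO pool 21 or 7. The LKO against HKO difference gave 0, with 21 by DESeq2, 2 with no filter and 0 to 3 without single mice (1 without HKO 1, 3 without LKO 2). The LKO effect after against before APAP gave 0, with 39 by DESeq2, 2 with no filter and 0 to 2 without single libraries (2 without LKO 2 and without 96 h). Later against earlier pools gave 19, with 172 by DESeq2, 169 with no filter and 0 to 62 without single times (0 without 12 h or 24 h, 62 without 48 h, 7 without 72 h, 4 without 96 h). The cause of these shifts was not tested.

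Whether replicate numbers pair the mice could not be settled with so few mice per group. Same-numbered control and LKO mice had correlations of deviations from -0.31 to 0.18 and NULL and HKO mice -0.04 to 0.12. Differently numbered control and LKO mice ran from -0.40 to 0.38. With the replicate number as a block, 0 genes were called in LKO against control and 263 in HKO against NULL, where 0 and 119 were without it. Library-size scaling moved the median log2 change of all genes by up to 0.33 (control pool at 48 h) and that of LKO minus control pools by up to 0.22 (96 h). Of the 35 log2 ratios of LKO to control pools, *Slc1a2* at 96 h went from -0.08 to 0.13 under it and to 0.18 with the stranded column, and *Rhbg* at 12 h from -0.16 to 0.29 with the stranded column. The 2-fold mark was crossed by *Slc1a2* at 48 h (0.82, and 1.05 with a prior count of 0.5 or 1.93 with the stranded column) and by *Rhbg* at 24 h (-0.87, and -2.20 with the stranded column), 48 h (1.11, and 0.98 with library size) and 72 h (0.94, 1.03 with library size and 1.01 with the stranded column). Of the changes from 0 h, those of *Oat* and *Rhbg* at 96 h and *Rgn* at 72 h in control changed sign under RLE scaling, the stranded column and library-size scaling in turn, all from within 0.12 of 0. The count of 0 for *Slc1a2* in the control pool at 24 h gives a log2 change of -9.98 with a prior count of 2, -11.98 with 0.5 and -8.97 with the stranded column. With at least 10 counts required in every library, *Slc1a2* was not tested in the comparisons that include pools.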
